A study of Mus musculus with 3 samples.

Results

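The CAST copy of the Sox2 control region (SCR) was followed read by read in a population where it was silenced and in a population where it was active. Reads assigned to CAST were kept when they carried a methylation call at each of 5 CpGs of the SCR on chromosome 3. This gave 7013 of the 90117 deposited reads of 3 libraries. Of these, 1560 of 1570 reads came from the silenced CAST allele of 129ON/CASTOFF cells, and 5453 of 5519 reads came from the active CAST allele of 129ON/CASTON cells. A further CpG, the second in order along the region, is described apart.

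The cells were mouse embryonic stem cells (mESCs) from a hybrid of the 129 and Castaneus (CAST) strains, so that the parental copies of a locus can be told apart by sequence. All populations came from 1 reporter design, in which a Snrpn promoter that is turned off by methylation drives tdTomato beside the 129 SCR and eGFP beside the CAST SCR. The cells grew without serum, with LIF, PD0325901 and CHIR99021, and some lost a reporter spontaneously. FACS gave 129ON/CASTON cells, with both reporters on, 129ON/CASTOFF cells, with only tdTomato on, and 129OFF/CASTON cells, with only eGFP on, and DNA of 200000 cells of each was treated with bisulfite. Silenced here means that the reporter on that allele was off. Activity of the enhancer itself was not part of these values.

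The SCR is a cluster of enhancers far downstream of Sox2, the gene for a transcription factor that pluripotent cells depend on. Methylation of cytosine in CpG dinucleotides is copied to the new strand after replication and, at enhancers, usually goes with loss of activity. Bisulfite turns unmethylated cytosine into uracil, which is sequenced as thymine, while methylated cytosine is still sequenced as cytosine. A methylated call is therefore a retained cytosine, and an unconverted cytosine gives the same call. Each read shows the states of all CpGs on one copy of the region, which an average over reads does not.

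The sequence below carries every CpG described. It is the plus strand of chr3:34759628-34759832 in the mm10 build, with the 6 CpGs in capitals in the order CpG 1 to CpG 6. It is the C57BL/6J reference, which is neither the 129 nor the CAST sequence.
SCR amplicon region: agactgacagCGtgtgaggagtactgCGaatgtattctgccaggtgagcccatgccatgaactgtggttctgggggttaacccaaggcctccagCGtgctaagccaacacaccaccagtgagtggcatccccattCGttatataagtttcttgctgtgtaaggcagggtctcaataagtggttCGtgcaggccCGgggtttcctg

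Position 34759638 is CpG 1 and 34759654 is CpG 2. CpG 3 is at 34759722 and CpG 4 at 34759763, and positions 34759811 and 34759821 hold CpGs 5 and 6. The neighbours among the 5 CpGs are thus 84 bp (CpGs 1 and 3), 41 bp (3 and 4), 48 bp (4 and 5) and 10 bp (5 and 6) apart. The region overlaps 0 genes of GENCODE M21 and is neither exonic nor intronic. RefSeq places it inside the SCR, between a pair of annotated Sox2 enhancer elements, with CpG 1 453 bp past the upstream element and CpG 6 1202 bp short of the downstream one. The contexts of CpGs 2, 3 and 4 are set side by side because these CpGs stood out in the reads, with the CpG in capitals and 10 bases on each side.
CpG 2: aggagtactgCGaatgtattct
CpG 3: aggcctccagCGtgctaagcca
CpG 4: catccccattCGttatataagt

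Each side is 1 library without replicates, so the state of the allele and the library cannot be told apart. Intervals below are 95% intervals over reads. They take each read as a molecule of its own, which amplified reads are not where molecules carry no identifiers, so they cover counting error only. The 129ON/CASTOFF library had 39236 reads, of which 4.00% were assigned to CAST, and the 129ON/CASTON library had 27690, of which 19.9% were. CAST is therefore the thinner allele, and the silenced CAST reads are the smallest set of the series. The share of an allele also differed with its state. In the 129OFF/CASTON library CAST had 28.2% of reads and the silenced 129 allele 71.8%, against 80.1% for the active 129 allele in 129ON/CASTON cells. Whether molecules were recovered unevenly by allele or by methylation was not tested, and this would bear on the shares below.

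All 5 CpGs were methylated on most silenced CAST reads and on few active CAST reads. CpG 4 was methylated on 75.2% of silenced reads (73.0% to 77.3%) against 0.458% of active reads, a difference of 74.7 percentage points (72.5 to 76.8). At CpG 1 the share was 74.6% against 1.08%, a difference of 73.5 points (71.2 to 75.6). CpG 5 had 70.4% against 1.47%, 69.0 points apart (66.6 to 71.2). CpG 6 had 68.5% against 0.862%, 67.7 points apart (65.3 to 69.9). CpG 3 had 60.3% against 2.70%, and its difference was 57.6 points (55.1 to 60.0), with an interval below that of every other CpG.

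The order of the CpGs differed between the states of the allele. On silenced reads CpG 3 was the least methylated, with an interval (57.8% to 62.7%) below the intervals of the other CpGs, while CpGs 4 and 1 had intervals that overlapped, as did CpGs 5 and 6. On active reads CpG 3 was the most methylated (2.30% to 3.16%), above CpG 5 (1.18% to 1.82%), and CpG 4 was the least (0.311% to 0.676%), with an interval that overlapped that of CpG 6 (0.649% to 1.14%). The CpG with the highest share on the silenced allele thus had the lowest on the active allele, and the reverse held for CpG 3. The same places were held by CpGs 3 and 4 on the other active CAST allele, that of 129OFF/CASTON cells, where CpG 3 had 12.1% and CpG 4 had 4.45%. They also held on the active 129 allele of 129ON/CASTOFF cells, with 7.00% and 3.81%. The active 129 allele of 129ON/CASTON cells had another order, with CpG 1 highest at 8.94% and CpG 5 lowest at 3.24%. The part of unconverted cytosine in the low active shares was not tested. The silenced 129 allele had its lowest share at CpG 3 as well, 67.7%, but its highest at CpG 1, 82.6%.

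Counted per read, the silenced CAST allele carried 3.49 methylated CpGs of 5 on average (SD over reads 1.52), and the active allele 0.0657 (SD 0.263). Mean methylation was 69.8% (68.3% to 71.3%) against 1.31% (1.17% to 1.45%). On the silenced allele 543 reads had 5 methylated CpGs, 360 had 4, 264 had 3, 188 had 2, 121 had 1 and 84 had none. On the active allele 5115 reads had none, 319 had 1, 18 had 2 and 1 had 3. No active read of 5453 had 4 or 5, which allows a share of up to 0.0550%, while 57.9% of silenced reads did. The level on the active side differed between the populations, and population and library cannot be told apart. On the active CAST allele of 129OFF/CASTON cells mean methylation was 7.56% (7.21% to 7.91%) and 73.7% of 6476 reads were unmethylated at all 5 CpGs, against 93.8% in 129ON/CASTON cells. The silenced allele stood 48.2 to 70.7 points above that allele at the 5 CpGs. On the active CAST allele of 129OFF/CASTON cells 25 reads (0.386%) had 4 or 5 methylated CpGs.

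Silenced reads with little methylation differed from active reads at the remaining CpG. Where none of the other 4 CpGs of the read was methylated, CpG 1 was methylated on 54 of 138 silenced reads (39.1%) and on 1.01% of 5167 active reads, a difference of 38.1 points (30.4 to 46.5). CpG 4 was methylated on 30 of 114 such silenced reads (26.3%) and on 0.389% of active reads, 25.9 points apart (18.7 to 34.7). At CpGs 5 and 6 the share was 13.4% of 97 silenced reads each, against 1.37% and 0.757% of active reads. CpG 3 had the smallest difference, 11.6% of 95 silenced reads against 2.61% of active reads (8.97 points, 3.96 to 17.0). None of these 5 intervals held 0.

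**Figure D1:**
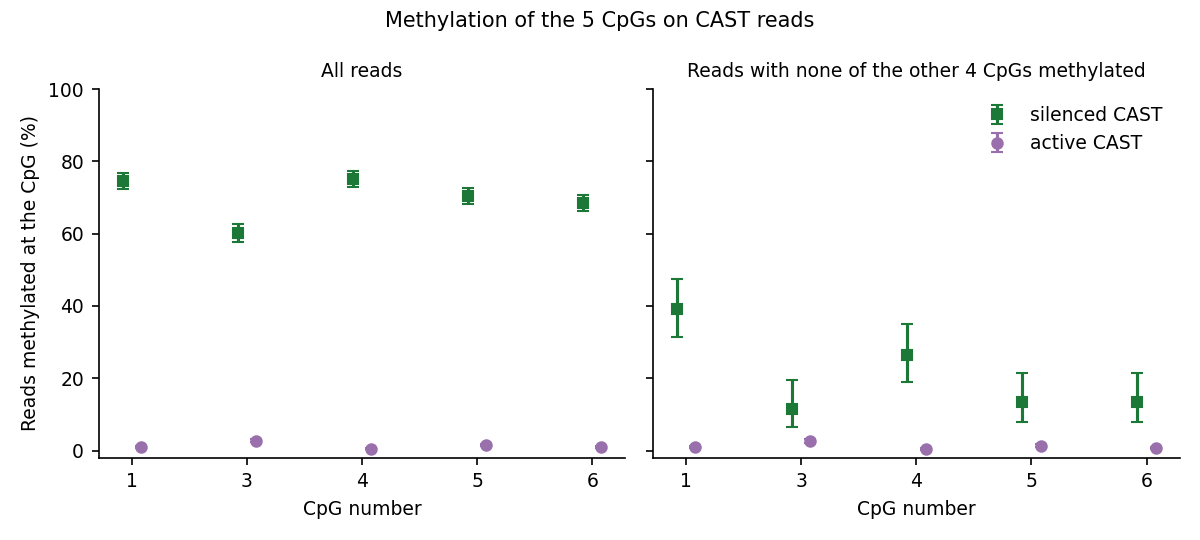
Percentage of CAST reads methylated at each CpG (vertical axis) by CpG number (horizontal axis), for silenced CAST reads of 129ON/CASTOFF cells (squares) and active CAST reads of 129ON/CASTON cells (circles), with Wilson 95% intervals as bars; the right panel keeps reads with none of the other 4 CpGs methylated. Silenced reads lie between 60.3% and 75.2% in the left panel and between 11.6% and 39.1% in the right, above the active reads at every CpG.

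The 5 CpGs allow 32 patterns, and the silenced CAST allele used nearly all of them. It showed 31 patterns, with only the pattern methylated at CpGs 3 and 5 alone absent (0 of 1560 reads, which allows up to 0.192%). The active allele showed 12. A pair of reads drawn from the silenced set differed in pattern 85.3% of the time, against 11.9% for the active set. The levels of the CpGs alone would give such a contrast. Unrelated CpGs with the silenced shares would put at least 3.64 of the 1560 reads in every pattern. With the active shares, most patterns would get less than a single read. Patterns of at least 2% of reads numbered 12 on the silenced allele and held 81.9% of its reads.

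Each pattern was set beside the product of the single-CpG shares, the frequency it would have if the CpGs of a read were unrelated. Both uniform patterns were more frequent than this product on the silenced allele. Full methylation was found on 34.8% of reads (32.5% to 37.2%), which is 2.13 times the product of 16.3%. Reads without methylation made up 5.38% (4.37% to 6.62%), 23.1 times the product of 0.233%. Over the 32 patterns, the interval lay above the product for 8, below it for 13 and held it for 11. On the active allele the unmethylated pattern had 93.8% of reads beside a product of 93.6%, and the interval held the product for 28 patterns. The other 4 were above it, and each rested on few reads: 6 methylated at CpGs 1 and 3, 3 at CpGs 3 and 4, 7 at CpGs 5 and 6 and 1 at CpGs 1, 4 and 5. The first 3 of these join adjacent CpGs. The 28 patterns include the 20 that were not seen. At shares this low, their intervals (up to 0.0704%) held the product in any case. The count of 28 therefore says little about whether the CpGs of an active read were related. On the active CAST allele of 129OFF/CASTON cells 13 patterns were above the product, 10 below and 9 within the interval.

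Among silenced reads with both states, the most frequent pattern lacked methylation at CpG 3 alone. It made up 9.23% of reads (7.89% to 10.8%), and its product was 10.8%. The other patterns with 1 unmethylated CpG were rarer: CpG 1 was the exception on 4.74% of reads, CpG 5 on 3.27%, CpG 4 on 3.14% and CpG 6 on 2.69%. For CpG 6 alone unmethylated the product was 7.49%, and for CpG 5 alone 6.84%, so patterns that split CpGs 5 and 6 fell well short of it. Of the 16 patterns in which CpGs 5 and 6 differ, 14 were below their product, against 6 of the 16 in which they are alike. Reads methylated at CpGs 1, 3 and 4 made up 4.68% (product 3.14%), at CpGs 4, 5 and 6 4.36% (3.67%) and at CpGs 1 and 4 3.97% (2.07%). Methylation at CpGs 1, 5 and 6 was found on 2.18%, below its product of 3.55%.

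Reads that differed from a uniform state at a single CpG showed which CpGs deviated. Of the 360 reads with 1 unmethylated CpG, that CpG was CpG 3 on 40.0%, CpG 1 on 20.6%, CpG 5 on 14.2%, CpG 4 on 13.6% and CpG 6 on 11.7%. Of the 121 silenced reads with 1 methylated CpG, it was CpG 1 on 44.6%, CpG 4 on 24.8%, CpGs 5 and 6 on 10.7% each and CpG 3 on 9.09%. CpG 3 was therefore the most frequent lone unmethylated CpG and the least frequent lone methylated one. Of the 319 active reads with 1 methylated CpG, it was CpG 3 on 42.9%, CpG 5 on 22.3%, CpG 1 on 16.3%, CpG 6 on 12.2% and CpG 4 on 6.27%. The share held by CpG 3 was 33.9 points lower on silenced than on active reads (difference -33.9, -40.6 to -25.5). Those of CpGs 1 and 4 were higher on silenced reads by 28.3 points (18.7 to 37.9) and 18.5 points (11.0 to 27.2).

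**Figure D2:**
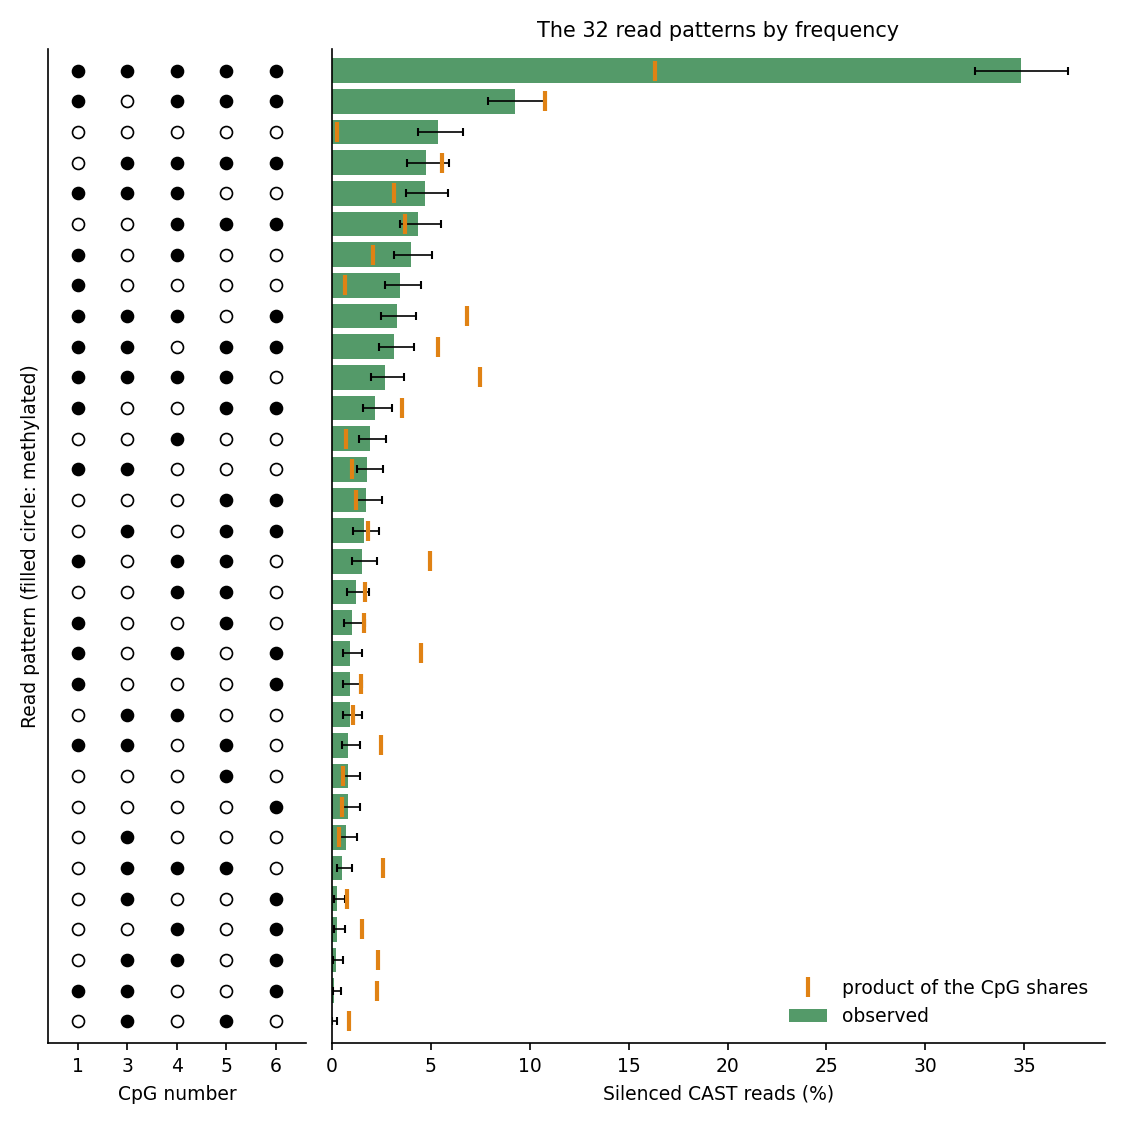
The 32 patterns of the 5 CpGs on silenced CAST reads, from most to least frequent: at left the CpGs of each pattern, filled where methylated, and at right its percentage of 1560 reads (bars, with Wilson 95% intervals) beside the product of the single-CpG shares (vertical marks). Full methylation stands at 34.8% beside a mark at 16.3%, and patterns in which CpGs 5 and 6 differ mostly end left of their marks.

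State changes between neighbouring CpGs fell least often in the shortest interval. On the silenced CAST allele 32.1% of reads (29.8% to 34.5%) changed state between CpGs 1 and 3, 31.9% (29.6% to 34.2%) between CpGs 3 and 4, 27.4% (25.3% to 29.7%) between CpGs 4 and 5 and 15.4% (13.7% to 17.3%) between CpGs 5 and 6. Relative to unrelated CpGs with the same shares, the changes were 0.714, 0.711, 0.691 and 0.363 times as many. The first 3 ratios lay close together although their intervals span 84, 41 and 48 bp. Per 10 bp, changes were most frequent between CpGs 5 and 6, at 15.4% of reads, and least frequent between CpGs 1 and 3, at 3.82%. On the active allele 3.56%, 3.04%, 1.85% and 2.07% of reads changed in the same intervals, 0.957, 0.973, 0.969 and 0.900 times the number from unrelated CpGs. The other active CAST allele, in 129OFF/CASTON cells, had more changes, on 15.3%, 13.2%, 10.2% and 3.799% of reads, at 0.934, 0.8501, 0.934 and 0.263 times that number. The shortage of changes between CpGs 5 and 6 was thus present on 1 set of active CAST reads as well.

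The direction of the changes at CpG 3 reversed between the states of the allele. On silenced reads that changed between CpGs 1 and 3, CpG 1 was the methylated one on 72.3% (68.2% to 76.0%), and between CpGs 3 and 4 CpG 3 was the methylated one on 26.6% (22.9% to 30.6%). On active reads the corresponding shares were 27.3% (21.5% to 34.0%) and 86.7% (80.7% to 91.1%). This is the read-level form of the order of the CpGs given above. Between CpGs 5 and 6 the methylated CpG was CpG 5 on 56.3% of the 240 silenced reads that changed (49.9% to 62.4%), an interval that holds an even split.

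Counted over whole reads, 627 silenced reads had no change, 379 had 1, 389 had 2, 151 had 3 and 14 had 4. Unmethylated gaps between methylated ends were more frequent, at 18.8% of reads, than methylated islands between unmethylated ends, at 6.09%. Unrelated CpGs with the same shares would also give more gaps than islands. Each gap pattern was in fact rarer than its product, while island patterns lay on both sides of theirs. A single change left the CpG 1 side methylated on 12.6% of reads and the CpG 6 side on 11.7%, with intervals that overlapped. Among the 379 reads with 1 change, the most frequent forms were methylation from CpG 3 to the CpG 6 end (19.5%), methylation from the CpG 1 end up to CpG 4 (19.3%) and methylation from CpG 4 to the CpG 6 end (17.9%). The active allele of 129ON/CASTON cells showed no gap on 5453 reads and an island on 4.25%, and 2 of its reads had 3 changes. Another active CAST allele, that of 129OFF/CASTON cells, had a gap on 0.510% of 6476 reads and an island on 12.6%. At the low shares of both active sets, unrelated CpGs would also give islands far more often than gaps. The allele of 129OFF/CASTON cells had 3 or 4 changes on 1.51%.

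**Figure D3:**
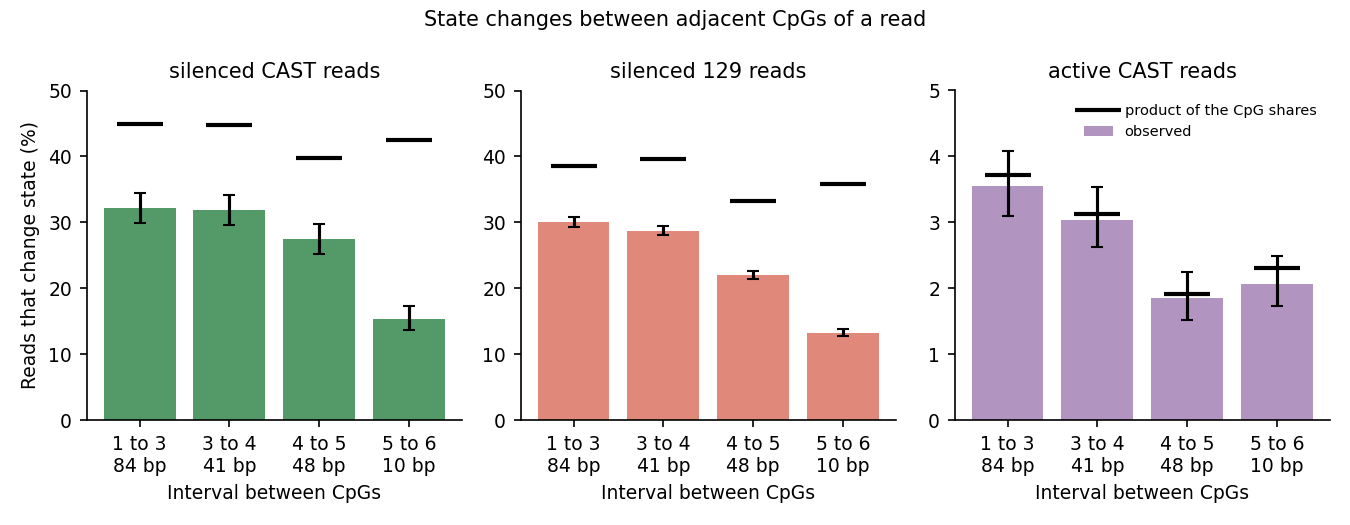
Percentage of reads whose state differs between adjacent CpGs (vertical axis) in each interval, with its length in bp (horizontal axis), for silenced CAST, silenced 129 and active CAST reads. Bars are observed values with Wilson 95% intervals, and the axis of the active panel ends at 5%. Horizontal marks, labelled as the product of the CpG shares, are the percentage that would change if CpGs with the same shares were unrelated. The silenced alleles lie below their marks in all 4 intervals, farthest between CpGs 5 and 6, and the marks of the active allele, that of 129ON/CASTON cells, fall within its intervals.

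The state of a CpG on the silenced CAST allele went with the state of its neighbours at all 5 CpGs. CpG 5 was methylated on 92.0% of reads where CpGs 4 and 6 were both methylated and on 19.2% where neither was, 72.8 points apart (66.8 to 77.8). With only CpG 6 methylated the share was 80.4%, and with only CpG 4 methylated it was 34.2%. At equal states of CpG 4, CpG 5 thus differed by 57.8 to 61.2 points with the state of CpG 6, and at equal states of CpG 6 by 11.7 to 15.0 points with that of CpG 4. CpG 6 was methylated on 87.7% of reads with CpG 5 methylated and on 22.8% of the others, 64.9 points apart (60.4 to 69.0), an interval that overlapped that of CpG 5.

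CpGs 3 and 4 depended on both sides. CpG 3 was methylated on 74.4% of reads with CpGs 1 and 4 methylated, on 43.8% with only CpG 1, on 45.0% with only CpG 4 and on 22.6% with neither. The neighbours 84 bp and 41 bp away thus gave shares whose intervals overlapped. CpG 4 was methylated on 88.5% with CpGs 3 and 5 methylated, 75.8% with only CpG 3, 73.9% with only CpG 5 and 40.0% with neither. A first methylated neighbour went with 33.9 to 35.8 points more than none, and another with a further 12.7 to 14.5 points. CpG 1, which has a neighbour on 1 side only, was methylated on 85.2% of reads with CpG 3 methylated and on 58.4% of the others, 26.8 points apart (22.3 to 31.3).

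These differences rest in part on the 84 silenced reads without methylation. When those reads were left out, the difference between neighbours methylated and unmethylated went from 26.8 to 17.7 points at CpG 1, from 51.8 to 31.4 at CpG 3 and from 48.5 to 30.9 at CpG 4. At CpG 5 it went from 72.8 to 60.9 points and at CpG 6 from 64.9 to 59.9. No interval of the remaining differences held 0.

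On the active CAST allele neighbours could be compared for few reads. CpG 6 was methylated on 7 of 80 reads with CpG 5 methylated (8.75%) and on 0.744% of the others, 8.01 points apart (3.55 to 16.2). CpG 1 was methylated on 6 of 147 reads with CpG 3 methylated (4.08%) and on 0.999% of the others, 3.08 points apart (0.864 to 7.63). On the active CAST allele of 129OFF/CASTON cells CpG 6 was methylated on 82.9% of 463 reads with CpG 5 methylated and on 2.78% of the others.

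**Figure D4:**
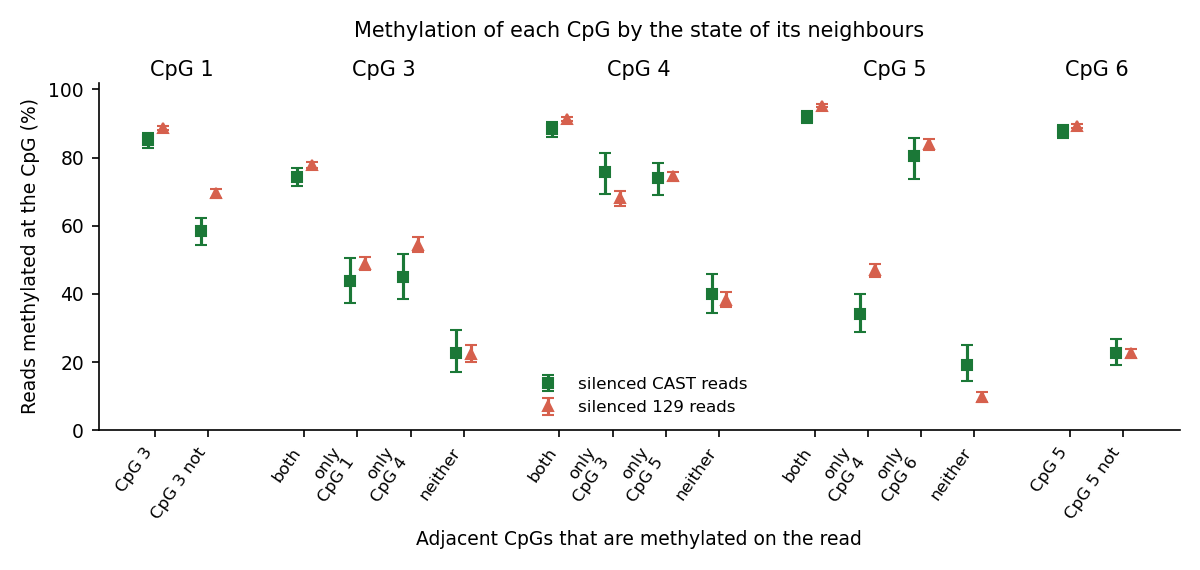
Percentage of reads methylated at each CpG (vertical axis) by which adjacent CpGs of the read were methylated (horizontal axis), on silenced CAST reads (squares) and silenced 129 reads (triangles), with Wilson 95% intervals. On the CAST allele CpG 5 runs from 19.2% to 92.0% and stays at 34.2% where only CpG 4 was methylated, against 80.4% where only CpG 6 was.

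Pairs of CpGs were then compared at equal states of the other 3 CpGs, as a Mantel-Haenszel odds ratio, which is 1 where the pair shares its state no more than the rest of the read gives. On the silenced CAST allele the ratio was 20.01 for CpGs 5 and 6 (14.8 to 27.1), 3.03 for CpGs 1 and 3 (2.34 to 3.93), 2.49 for CpGs 3 and 4 (1.90 to 3.25) and 2.25 for CpGs 4 and 5 (1.62 to 3.12). The intervals of the last 3 overlapped. Among the 6 pairs that are not adjacent, CpGs 1 and 4, 125 bp apart, had the highest ratio, 2.40 (1.83 to 3.16), and CpGs 1 and 5, 173 bp apart, the lowest, 1.03 (0.730 to 1.45). The ratio of CpGs 1 and 4 was within the intervals of all 3 longer adjacent intervals, although CpG 3 lies between them and was held equal. On the active CAST allele CpGs 5 and 6 had a ratio of 12.9 (5.59 to 29.9), from 7 reads methylated at both. On the active CAST allele of 129OFF/CASTON cells the ratio was 170.0 (126 to 229), from 384 reads methylated at both. This was above the interval of the silenced allele. A close link of CpGs 5 and 6 was thus not limited to reads of the silenced set. Of the reads of the 129OFF/CASTON library, 71.8% were assigned to the silenced 129 allele. The part of 129 reads, or of reads joined from both alleles, in the ratio of 170.0 was not tested.

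**Figure D5:**
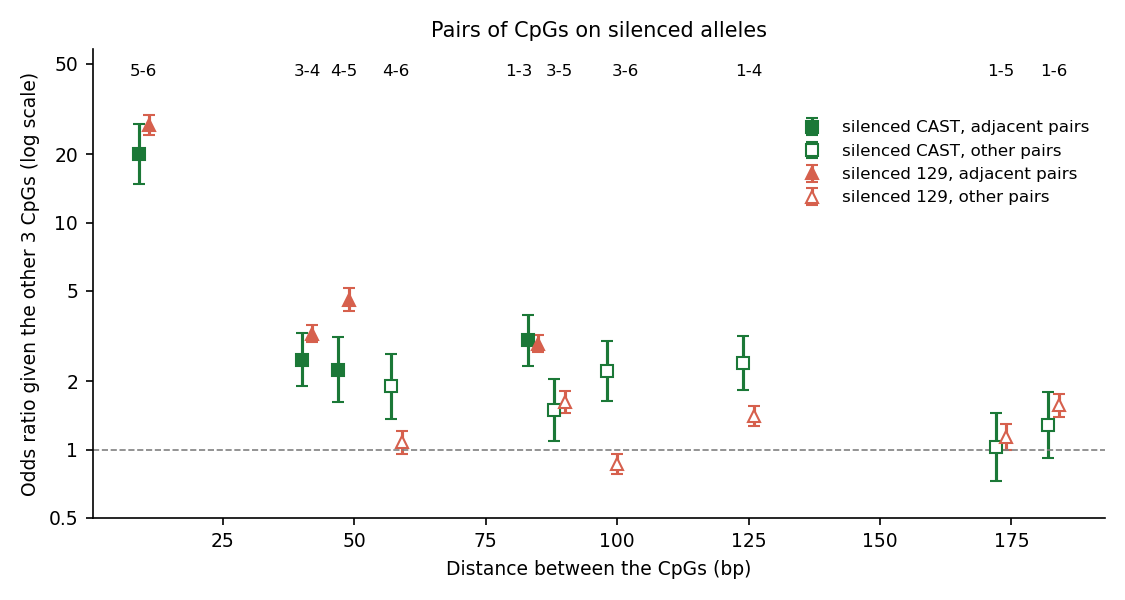
Odds ratio of a shared state for each of the 10 pairs of CpGs at equal states of the other 3 (vertical axis, log scale) against the distance of the pair in bp (horizontal axis), on silenced CAST reads (squares) and silenced 129 reads (triangles), with 95% intervals; filled symbols are adjacent pairs, and pairs are named above by their CpGs. CpGs 5 and 6 reach 20.01 on CAST at 10 bp, and the pairs at 41 to 125 bp lie between 1.49 and 3.03.

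The silenced 129 allele of 129OFF/CASTON cells, with 16527 reads, was the nearest comparison, although the allele, its reporter protein and the library differ together. Fewer silenced CAST reads were fully methylated, though their number relative to the product of the CpG shares was higher. Full methylation was found on 34.8% of CAST and 41.2% of 129 reads (difference -6.38 points, -8.82 to -3.87), and absence of methylation on 5.38% and 3.06% (2.33 points, 1.28 to 3.59). Full methylation was 2.13 times its product on CAST and 1.58 times on 129, and absence of methylation 23.1 and 48.9 times. These differences in the relative values were not tested. All 5 CpGs were less methylated on CAST, with differences from -8.02 points at CpG 1 to -4.36 points at CpG 4. Of the 32 patterns, 14 were more frequent on CAST, 5 less frequent, and 13 had an interval that held 0. Reads methylated at CpGs 1 and 4 alone made up 3.97% against 1.82% (2.15 points, 1.26 to 3.26).

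As a share of reads, changes of state were more frequent on CAST in 3 of the 4 intervals. Relative to unrelated CpGs with the same shares, however, they were fewer on CAST in 3 of 4. CAST is the less methylated allele, so unrelated CpGs would already change more often on it. The difference was 5.44 points between CpGs 4 and 5 (3.19 to 7.79), 3.15 points between CpGs 3 and 4 (0.779 to 5.60), 2.09 points between CpGs 5 and 6 (0.307 to 4.03) and 2.06 points between CpGs 1 and 3 (-0.322 to 4.51). Relative to unrelated CpGs, changes between CpGs 1 and 3 were 0.714 times as many on CAST and 0.781 on 129, and 0.711 and 0.726 between CpGs 3 and 4. Between CpGs 4 and 5 the values were 0.691 and 0.663, and between CpGs 5 and 6 they were 0.363 and 0.371. The difference of these relative values was not tested. Reads with 3 or 4 changes made up 10.6% on CAST and 5.88% on 129 (4.70 points, 3.22 to 6.36).

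Reads with a single deviating CpG also differed between the silenced alleles. Where 1 CpG was unmethylated, it was CpG 5 on 14.2% of CAST and 6.22% of 129 reads (7.95 points, 4.64 to 12.0) and CpG 6 on 11.7% and 19.4% (-7.72 points, -10.9 to -3.82). The shares of lone unmethylated CpGs held by CpGs 1, 3 and 4 had differences whose intervals held 0. Where 1 CpG was methylated, CpG 5 and CpG 6 both held larger shares on CAST, by 6.21 points (1.48 to 13.1) and 6.79 points (2.10 to 13.7), and CpG 1 a smaller one (-12.0 points, -21.3 to -2.39). With CpG 6 unmethylated, CpG 5 was 15.0 points more methylated on CAST (7.15 to 22.5) and 37.2 points on 129 (34.7 to 39.6) where CpG 4 was methylated than where it was not. With CpG 6 methylated the same difference was 11.7 points on CAST (6.003 to 18.5) and 11.3 points on 129 (9.62 to 13.0). The odds ratio of CpGs 4 and 5 on CAST was 0.491 times that on 129 (0.345 to 0.697). Those of CpGs 1 and 4, 3 and 6, and 4 and 6 were 1.71 (1.27 to 2.29), 2.57 (1.86 to 3.55) and 1.76 (1.24 to 2.50) times those on 129. For the other 6 of the 10 pairs the interval of this quotient held 1, CpGs 5 and 6 included (0.742, 0.539 to 1.02). Of the 4 adjacent pairs 1 was thus less closely linked on CAST, and of the 6 other pairs 3 were more closely linked. These pairs were named after their values were seen, and the intervals are not adjusted for the 10 comparisons.

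CpG 2 went apart from all of this. On the silenced CAST allele it was methylated on 12 of 1559 reads (0.770%, 0.441% to 1.34%), below the 1.74% of the active CAST allele (95 of 5450 reads, 1.43% to 2.13%), while its neighbour CpG 1, 16 bp away, had 74.6%. Its share did not rise steadily with methylation of the rest of the read: it was 0.369% of 542 reads methylated at the other 5 CpGs, 2.66% of 188 reads methylated at 2 of them and 0 of 84 reads methylated at none, which allows up to 3.57%. With CpG 1 methylated it was 0.861% and without 0.504%, with intervals that overlapped. On the active allele CpG 2 did go with CpG 1, at 13.6% of 59 reads methylated at CpG 1 (7.03% to 24.5%) against 1.61% of the others. On the silenced 129 allele CpG 2 was methylated on 81.7% of reads. On the active CAST allele of 129OFF/CASTON cells, from the same library, it was methylated on 4.03% of 6472 reads. There it was 27.3% of 362 reads methylated at CpG 1 and 2.65% of the others. It was 1.84% of the reads methylated at none of the other 5 CpGs and 20.8% of 24 reads methylated at 4 of them. The part of 129 reads, or of reads joined from both alleles, in this set was not tested. The sequence of the CAST strain was not used here, so whether CAST has a CpG at this position is not known from these values, and without one the calls would not be CpG methylation.

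The 84 silenced reads without methylation at the 5 CpGs number 0.275% of the 30546 such reads of the active 129 allele in the same library. At CpG 2, 6.67% of those 129 reads with a call there were methylated, and 1.62% of 5112 unmethylated reads of the active CAST allele. The part of reads given to the wrong allele, or of cells sorted to the wrong population, in these 84 reads was not tested. Reads joined from both alleles during PCR could bear on any mixed pattern, state change or odds ratio of the CAST reads. CAST reads are 4.00% of this library and 28.2% of that of 129OFF/CASTON cells, where this applies as well. Joined reads were not looked for, since the positions of the polymorphisms are not given in the sources used here. Without the 84 unmethylated reads mean methylation of the silenced CAST allele was 73.8%. Full methylation was then 1.71 times the product of the CpG shares in place of 2.13 times.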

How the data were processed

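DNA of sorted reporter mESCs was bisulfite-converted, and an SCR amplicon was sequenced on a MiSeq Nano, with 1 library for each of 3 populations. The authors aligned reads with Bismark (version 0.22.3, mm10, as the submitters' processing notes list), split them by allele with 2 polymorphisms and deposited methylation calls, 1 line per read and CpG with a methylated or unmethylated state. Their unit is a call, not a count or a fraction. The allele was taken from the deposited names. The protocol names 7 CpGs in the amplified region, and 6 had at least 50 calls in every set.

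Calls were grouped by read with Python 3.11.15. Shares have Wilson intervals, differences of shares Newcombe intervals and odds ratios Mantel-Haenszel estimates with Robins-Breslow-Greenland intervals, all at 95%. The quotient of a pair of odds ratios has an interval from their log errors. The share that a count of 0 allows is given as 3 divided by the number of reads. The intervals of unseen active patterns are Wilson intervals. Classes of neighbours needed 20 reads. No p-value was computed, since each side has 1 library. The procedures were tested on simulated data. CpGs had 1566 to 5516 calls on the CAST sets compared. The rule for naming was the 5 CpGs and CpG 2, patterns of at least 2% of silenced reads, patterns of 1 methylated CpG or of a uniform state, the 3 most frequent other patterns of the active reads, adjacent pairs, and the highest and lowest other pair. Members, patterns and alternatives were chosen with earlier results of these data known. Figures were drawn with matplotlib 3.10.9.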

Additional observations from a re-analysis of the deposited data

How the results depend on the processing

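Of 157 values recomputed under alternatives, 125 stayed within the interval of the reported value, or within 1.5 times a count of patterns, 32 moved out of it and 0 reversed. Limiting the reads to those called at all 6 CpGs, widening them to all with the calls concerned, setting a minimum of 500 calls or of 100 reads per class, or leaving out reads methylated at CpG 2, moved none. These settings kept nearly the same reads, such as 1559 of 1560 silenced and 5450 of 5453 active reads called at all 6 CpGs. Most of the 125 values came from them, so that count says little about how stable the results are. With the active CAST allele of 129OFF/CASTON cells as the active side, its mean methylation was 7.56% and its share of unmethylated reads 73.7%. Its number of patterns was 28, and 12 other values moved while 3 stayed. Without the reads unmethylated at all 5 CpGs, mean methylation of the silenced allele was 73.8% and full methylation was 1.71 times the product of the CpG shares. The difference at CpG 5 between its neighbours methylated and unmethylated was then 60.9 points, and 10 other values moved while 15 stayed. Without CpG 6, reads methylated throughout made up 37.5% and reads with both states 56.3% of the silenced allele, and unmethylated reads 94.5% of the active allele. With at least 2 CpGs of each state required, mixed reads made up 29.0%. These changes follow from the reads or CpGs left out. No paired analysis was possible because each population has 1 library, and no replicate could be left out. The number of CAST reads in 129ON/CASTOFF cells limits the rarer patterns and classes.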
